A study of Homo sapiens and Homo sapiens
Mus with 12 samples.

Results

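MT-CYB, MT-CO1, MT-CO2, MT-CO3, MT-ATP6 and MT-ATP8 are the 6 of the 13 protein genes of human mitochondrial DNA that encode subunits of respiratory chain complexes III, IV and V. Their RNA was compared in bladder cancer cells with and without a knockdown of CDH11. The rule for the 6 genes names the complex and uses no measured value, although it was set with earlier results of these data known. It takes in MT-CYB of complex III, MT-CO1, MT-CO2 and MT-CO3 of complex IV, and MT-ATP6 and MT-ATP8 of complex V. All 6 were listed among the 21466 genes with values in cultured cells and among the 26813 human genes of the tumors, and all 6 passed the low-count filter in both. The other 7 protein genes encode subunits of complex I and served for comparison.

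The cells were UM-UC-3, an established line from an advanced human bladder cancer. They had been infected with a lentivirus that carries a hairpin RNA and GFP, and GFP-positive cells were sorted, so each line is a sorted population and not 1 clone. The shCtrl line carries a nonsilencing hairpin, and the sh#1 and sh#2 lines carry different hairpins against CDH11, a cadherin of mesenchymal cells. RNA was sequenced from 3 libraries of each line after 24 hours of preculture, and from 5 subcutaneous tumors of each line taken 4 weeks after the cells were injected in Matrigel into nude mice aged 5 weeks. Nude mice lack mature T cells but keep other immune and stromal cells, and a separate table gives mouse gene counts for the same tumors. CDH11 KD below means sh#1 and sh#2 together. Nothing in the sources says that the 3 cultured libraries of a line came from separate cultures, so p-values there measure the spread between these libraries.

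Mitochondrial DNA is transcribed from both strands as long RNAs that are cut into shorter RNAs, mostly at the transfer RNAs between the genes. MT-ATP8 and MT-ATP6 overlap by 46 nt, so no transfer RNA lies between them. Complex III passes electrons from ubiquinol to cytochrome c, complex IV passes them on to oxygen, and complex V uses the resulting proton gradient to make ATP. The mitochondrial genes supply the catalytic or proton-carrying core of each complex, and nuclear genes supply the remaining subunits, the assembly factors and the enzymes that copy, transcribe and process the mitochondrial genome.

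All 6 genes lie on the plus strand of chromosome M of hg38. MT-CO1 (ENSG00000198804) covers 5904 to 7445, MT-CO2 (ENSG00000198712) 7586 to 8269, MT-ATP8 (ENSG00000228253) 8366 to 8572, MT-ATP6 (ENSG00000198899) 8527 to 9207, MT-CO3 (ENSG00000198938) 9207 to 9990 and MT-CYB (ENSG00000198727) 14747 to 15887. Each is 1 exon with no intron. MT-ATP8 and MT-ATP6 share 46 nt in different reading frames, and MT-ATP6 and MT-CO3 share 1 nt, so a read in the shared stretch cannot be given to 1 gene alone. The junctions are printed from hg38, since the genes that fell together in cultured cells meet there, with the shared bases in capitals.
MT-ATP8 and MT-ATP6, chrM:8507-8592: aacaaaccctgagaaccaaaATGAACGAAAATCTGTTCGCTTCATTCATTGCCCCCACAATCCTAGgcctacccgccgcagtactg
MT-ATP6 and MT-CO3, chrM:9187-9227: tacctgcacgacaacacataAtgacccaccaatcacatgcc

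Total counts were 2273182 to 2777019 per cultured library and 414849 to 1248977 human and 94406 to 220238 mouse counts per tumor. CDH11, the target of the hairpins, was barely counted in cultured cells, with 2, 4 and 4 counts in shCtrl, 0, 0 and 1 in sh#1 and 1, 2 and 0 in sh#2. For the knockdown cells the study itself reported significantly less CDH11 mRNA and protein than for shCtrl. In tumors CDH11 had 21, 12, 15, 32 and 5 counts in shCtrl, 1, 3, 9, 2 and 7 in sh#1 and 7, 14, 12, 6 and 2 in sh#2. The CDH11 difference passed the test for sh#1 tumors (log2 fold change -1.67, adjusted p = 0.026) and not for sh#2 tumors (-0.73, adjusted p = 0.347) or both hairpins together (-1.13, adjusted p = 0.112). Adjusted p-values here come from the quasi-likelihood test of edgeR, adjusted over all genes tested by the Benjamini-Hochberg method. Of the 6 markers of the line, VIM, CD44, KRT8 and KRT18 were counted in every library. KRT7 had 5 to 14 counts in cultured cells and 0 to 5 in tumors, and CDH2 had 57 to 106 and 0 to 25. The 6 summed to 2803 to 3004 CPM in cultured shCtrl, 2947 to 3165 in sh#1 and 4737 to 5198 in sh#2. Of the 7 urothelial markers, UPK1B and UPK3A had 0 counts in every cultured library. The list summed to 3.69 to 4.19 CPM in cultured shCtrl, 2.05 to 5.64 in sh#1 and 13.1 to 13.4 in sh#2. In tumors 4 of the 7 were listed, and they summed to at most 10.7 CPM in shCtrl, 25.0 in sh#1 and 13.4 in sh#2. The tumor libraries were sequenced in 3 mixes, and each mix held the tumors of 1 line only, so mix and line cannot be told apart in tumors. The first sh#1 tumor stood apart, with the lowest human total, 30.0% of its human and mouse counts on mouse genes against 10.4 to 18.8% in the other 14, and mouse adipocyte markers summing to 10337 CPM against at most 398 in shCtrl tumors.

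In cultured cells the 6 genes did not move together. MT-CO3, MT-ATP6 and MT-ATP8 were lower in CDH11 KD than in shCtrl cells, MT-CO1 was higher, and MT-CYB and MT-CO2 did not pass the test. Of the 6 genes, 3 fell and 1 rose past an adjusted p of 0.05, where 8.32% of the 9859 genes tested fell and 9.12% rose. Their median log2 fold change was -0.47, against 0.00 over all genes tested. MT-ATP8 and MT-ATP6 overlap, so in the counts of genes here and below they are not separate observations. In the 7 complex I genes, 3 fell and 1 rose, with a median of 0.12. These are bulk libraries, in which fewer cells of a kind and less RNA per cell cannot be told apart.

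MT-CO3 encodes a core subunit of complex IV that does not itself bind the redox metals. It was at 11491, 11932 and 11506 normalized CPM (counts scaled to the library total after TMM normalization) in shCtrl, 7289, 7044 and 6584 in sh#1 and 4605, 4876 and 4996 in sh#2. No library of either hairpin overlapped with shCtrl, and all sh#2 libraries were below all sh#1 libraries. The share of all genes with no overlap between groups was not counted, so lack of overlap, here and below, only describes the gene named. The log2 fold change was -0.98 for CDH11 KD (SE 0.14, adjusted p = 0.00019), -0.74 for sh#1 (SE 0.05, adjusted p = 5.93e-17) and -1.27 for sh#2 (SE 0.05, adjusted p = 3.5e-27).

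MT-ATP6 encodes subunit a of the ATP synthase, part of the path by which protons cross the membrane. Its normalized CPM was 12128, 12700.2 and 12613 in shCtrl, 7702, 8045 and 8199 in sh#1 and 5845, 6162 and 6332 in sh#2. The 3 groups did not overlap, in the same order as for MT-CO3. The gene fell by 0.82 on the log2 scale in CDH11 KD (SE 0.11, adjusted p = 6.96e-05), with -0.64 for sh#1 and -1.03 for sh#2.

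MT-ATP8 encodes a small membrane subunit of the same enzyme. It had 2835, 1770.5 and 1860.4 normalized CPM in shCtrl, 1003, 973 and 929 in sh#1 and 711, 590.1 and 561 in sh#2. The first shCtrl library was well above the other two, and every shCtrl library was above every CDH11 KD library. Its log2 fold change had the largest size of the 6, -1.44 (SE 0.23, adjusted p = 0.00265), with -1.15 for sh#1 and -1.80 for sh#2.

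MT-CO1 encodes the catalytic subunit of complex IV, which carries heme and copper and reduces oxygen. Its normalized CPM was 1169.5, 1195 and 1186 in shCtrl, 1436, 1449 and 1457 in sh#1 and 2202, 2242 and 2282 in sh#2. All libraries of both hairpins were above all shCtrl libraries, with sh#2 the highest. The gene rose by 0.64 on the log2 scale in CDH11 KD (SE 0.18, adjusted p = 0.0263), by 0.29 in sh#1 (SE 0.05, adjusted p = 4.11e-05) and by 0.92 in sh#2 (SE 0.05, adjusted p = 5.36e-21). The call for both hairpins together was lost without the low-count filter (adjusted p = 0.0559) and without any 1 of the 3 shCtrl libraries (adjusted p = 0.0886, 0.0804 and 0.0847 without library 1, 2 and 3). The calls by hairpin in fits of 3 groups used the closer spread within each line.

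MT-CYB encodes cytochrome b, the only mitochondrially encoded subunit of complex III. It was at 8315, 9199.9 and 8815 normalized CPM in shCtrl, 7145, 7374 and 7892 in sh#1 and 9218, 9765 and 10033 in sh#2. The hairpins lay on opposite sides of shCtrl with no overlap. The log2 fold change was -0.23 for sh#1 (SE 0.05, adjusted p = 0.001) and 0.14 for sh#2 (SE 0.05, adjusted p = 0.0364), and -0.03 for both together (95% interval -0.27 to 0.21, adjusted p = 0.867). The sh#2 call was lost with upper quartile scaling (0.10, adjusted p = 0.182) and with a minimum of 10 counts in every library (0.12, adjusted p = 0.0759). It was also lost without shCtrl library 1 (adjusted p = 0.182) or 3 (0.0967) and without sh#2 library 2 (0.109) or 3 (0.137).

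MT-CO2 encodes the subunit of complex IV that takes electrons from cytochrome c. It had 7129, 7521 and 7660.4 normalized CPM in shCtrl, 6842, 6576 and 6334 in sh#1 and 6627, 7089.8 and 7706 in sh#2. The sh#1 libraries were all below shCtrl and the sh#2 libraries overlapped with it. The log2 fold change was -0.18 for sh#1 (adjusted p = 0.0156), -0.06 for sh#2 (95% interval -0.17 to 0.05, adjusted p = 0.431) and -0.12 for both (adjusted p = 0.388). The sh#1 call was lost without shCtrl library 2 or 3 and without sh#1 library 2 or 3.

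**Figure D1:**
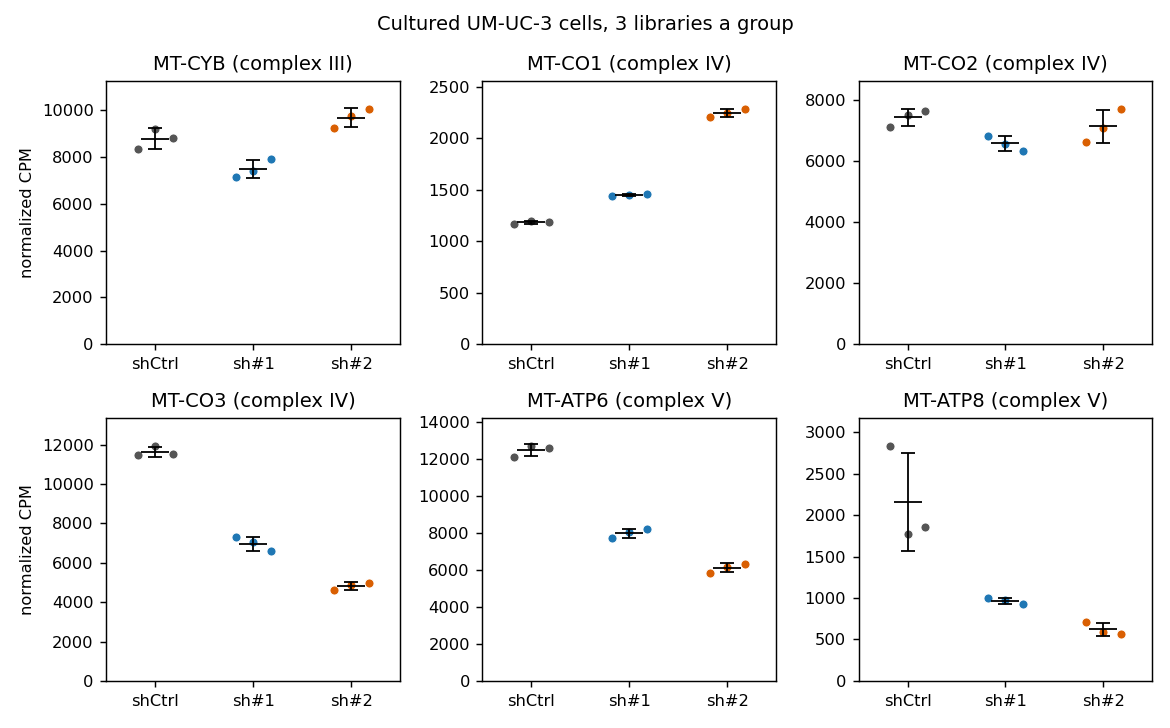
Normalized CPM (y axis, from 0) of each of the 6 genes in the shCtrl, sh#1 and sh#2 libraries of cultured cells, 1 point per library, with the mean and SD of the 3 libraries as bars. MT-CO3 goes from 11643 in shCtrl to 6972 in sh#1 and 4825 in sh#2 on average, while MT-CO1 goes from 1183 to 1447 and 2242.

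Counted by hairpin, sh#1 had 1 of the 6 genes higher and 5 lower, where 11.8% and 10.6% of all genes tested passed in these directions. For sh#2, 2 were higher and 3 lower, where 19.5% and 18.8% of all genes passed. Both comparisons use the same 3 shCtrl libraries. The hairpins themselves differed in 4 of the 6 genes (sh#1 higher in 2 and lower in 2, with 11.2% and 13.5% of all genes past the threshold). Relative to sh#2, sh#1 was higher by 0.53 for MT-CO3 (adjusted p = 1.78e-11) and by 0.38 for MT-ATP6 (7.82e-08). It was lower for MT-CO1 at -0.63 (4.75e-14) and for MT-CYB at -0.37 (3.4e-07). MT-ATP8 (0.64, 95% interval 0.14 to 1.14, adjusted p = 0.0712) and MT-CO2 (-0.12, -0.23 to -0.01, adjusted p = 0.118) did not pass.

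Along the mitochondrial genome, the genes that fell in cultured CDH11 KD cells lay in 2 stretches. MT-ND1 (-0.71) and MT-ND2 (-0.97) precede MT-CO1, and MT-ATP8, MT-ATP6 and MT-CO3 are followed by MT-ND3 (-0.92). The other complex I genes on this strand lie beyond MT-ND3, where MT-ND4L (0.25, adjusted p = 0.0553), MT-ND4 (0.14) and MT-ND5 (0.12) did not pass for both hairpins together. MT-ND6, encoded on the opposite strand, rose by 0.59 (adjusted p = 0.0111). MT-CO1 and MT-CO2 therefore stand between genes that fell.

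**Figure D2:**
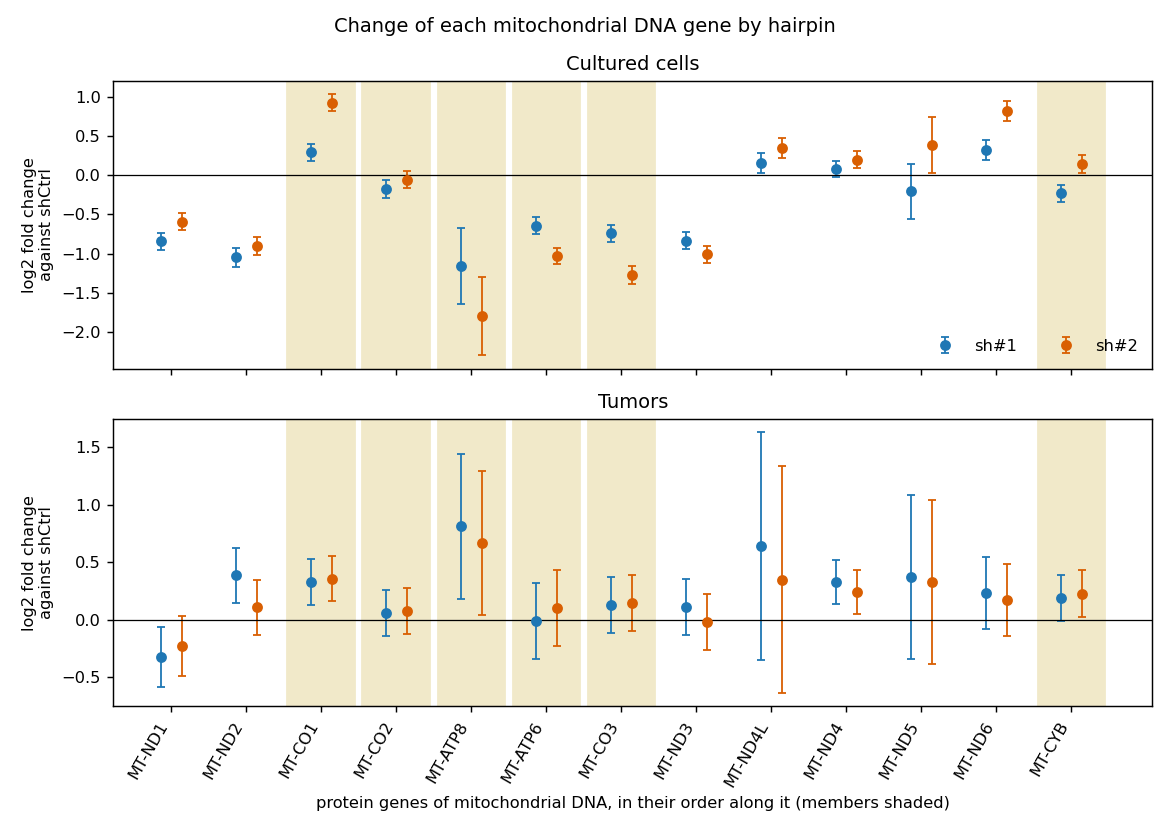
Log2 fold change against shCtrl (y axis) of the 13 protein genes in their order along mitochondrial DNA (x axis, the 6 genes of complexes III to V shaded) for sh#1 and sh#2, as points with 95% intervals, in cultured cells above and in tumors below. In cultured cells MT-ATP8, MT-ATP6 and MT-CO3 lie below 0 and MT-CO1 above 0 for both hairpins, and in tumors only MT-CO1 in sh#2 passed the test among the shaded genes.

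The 6 genes together took 4.65, 4.72 and 4.70% of all counts in shCtrl, 3.27, 3.18 and 3.21% in sh#1 and 2.63, 2.76 and 2.85% in sh#2. On this share the groups did not overlap. The complex I genes took 4.59% ± 0.106 (SD, n = 3) in shCtrl, 3.22% ± 0.0787 in sh#1 and 3.08% ± 0.0481 in sh#2. These are shares of raw counts, without the TMM factors. Those factors were 1.07 to 1.08 in shCtrl, 1.02 to 1.04 in sh#1 and 0.897 to 0.905 in sh#2. The order of sh#1 and sh#2 in these shares therefore did not carry over to every gene after TMM. By edgeR, sh#1 was higher than sh#2 in 2 of the 6 genes and lower in 2. In the 7 complex I genes it was higher in 1 and lower in 4. Over all genes tested, 11.2% were higher and 13.5% lower at the same threshold. Within the counts of the 13 genes, where the fall of the whole drops out, MT-CO3 went from 13.5% ± 0.254 in shCtrl to 11.1% ± 0.547 in sh#1 and 7.43% ± 0.198 in sh#2. MT-CO1 went from 1.37% ± 0.018 to 2.30% ± 0.0415 and 3.45% ± 0.0221, and MT-CYB from 10.2% ± 0.517 to 11.9% ± 0.707 and 14.9% ± 0.41. On this scale MT-CO2 was at 8.61% ± 0.358 in shCtrl, 10.5% ± 0.424 in sh#1 and 10.4 to 11.6% in sh#2, and no library of either hairpin overlapped with shCtrl.

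**Figure D3:**
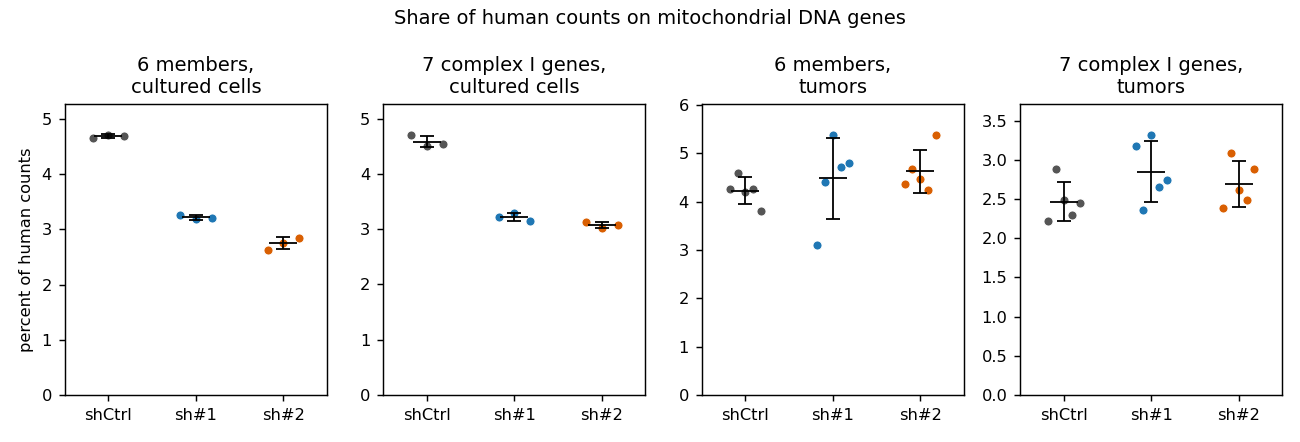
Percent of raw human counts (y axis, from 0, without TMM factors) on the 6 genes and on the 7 complex I genes, 1 point per library or tumor. Bars give the group mean and SD, with cultured cells on the left and tumors on the right. In cultured cells the 6 genes average 4.69% in shCtrl, 3.22% in sh#1 and 2.75% in sh#2, and in tumors 4.23%, 4.48% and 4.62%.

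Per kb of gene length, normalized counts in the shCtrl cells were highest for MT-ATP6 (18327 ± 453 CPM per kb, SD, n = 3). Next came MT-CO3 (14850.4 ± 319.5), MT-CO2 (10872 ± 403), MT-ATP8 (10412 ± 2852), MT-CYB (7692 ± 389) and MT-CO1 (767 ± 8.33). MT-CO2 and MT-ATP8 did not differ beyond their spread. In shCtrl tumors the level per kb was highest for MT-CO3 (14688 ± 655, n = 5) and MT-ATP6 (13090.0 ± 2216), whose ranges overlapped. MT-CO2 (11866 ± 569) and MT-CYB (8734 ± 932) also overlapped with MT-ATP6 in range, though not with each other, and MT-CO1 (2437 ± 188) and MT-ATP8 (874 ± 71.6) came below. These are levels of counts within each table, and the part of read position and read assignment in their order was not tested. Of the stretches of 75 nt in MT-CO1, 36.6% also occur in the nuclear genome. The 2 tables came from different sequencers and mapping steps, and the sources do not say whether reads cover whole transcripts.

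In tumors, only MT-CO1 of the 6 genes differed between CDH11 KD and shCtrl past the threshold of 0.1 used there. That is 1 of 6 higher, where 0.697% of the 9184 genes tested were higher, and 0 of 6 lower, where 0.817% were. By edgeR 3 of the 6 had an unadjusted p under 0.05 (MT-CO1, MT-CYB and MT-ATP8), as did 1164 of the 9184 genes. DESeq2 called 2 of the 6 and 164 over all genes. The median log2 fold change of the 6 was 0.17, against 0.01 over all genes and 0.26 over the complex I genes.

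MT-CO1 was at 3738, 4009, 4027, 3702 and 3315 normalized CPM in the shCtrl tumors, 4995, 4398, 4843, 4573 and 4811 in sh#1 and 4440.0, 5560.2, 4224, 4048 and 5830.2 in sh#2. All 10 CDH11 KD tumors were above all 5 shCtrl tumors. The log2 fold change was 0.34 (SE 0.09, 95% interval 0.16 to 0.53, adjusted p = 0.0723), with 0.33 for sh#1 (adjusted p = 0.109) and 0.36 for sh#2 (adjusted p = 0.0515). The call was kept in 15 alternatives and lost in 10, and when the counts of its nuclear copies were added to MT-CO1 the difference was 0.13 (adjusted p = 0.586).

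Nuclear copies are stretches of mitochondrial DNA inserted into the chromosomes in the past, and short reads from the mitochondrial gene can be counted on them. The tumor table lists 29 copies of the 6 genes, of which 6 averaged 5 counts or more, and the cultured table lists 0. MTCO1P12 (ENSG00000237973, chromosome 1, 631074 to 632616, plus strand) is an annotated pseudogene with 98.7% identity to MT-CO1, and 20 of its 1542 aligned bases differ. Of the 1468 windows of read length in MT-CO1, 538 (36.6%) occur in MTCO1P12 without a mismatch. A stretch from hg38 with 1 differing base, in capitals, shows how close the gene and its copy are.
MT-CO1, chrM:5986-6060: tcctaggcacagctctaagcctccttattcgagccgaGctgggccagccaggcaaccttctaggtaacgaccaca
MTCO1P12, chr1:631156-631230: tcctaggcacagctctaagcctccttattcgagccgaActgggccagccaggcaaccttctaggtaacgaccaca

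MTCO1P12 had 938, 852, 937, 848 and 847 normalized CPM in shCtrl tumors, 874, 270.1, 307, 299 and 283 in sh#1 and 267, 169, 243, 245 and 339.9 in sh#2. All shCtrl tumors were above 9 of the 10 CDH11 KD tumors, and the first sh#1 tumor lay within the shCtrl range. The log2 fold change was -1.46 for CDH11 KD (SE 0.28, adjusted p = 0.0279), -1.18 for sh#1 (adjusted p = 0.111) and -1.81 for sh#2 (adjusted p = 0.00998). MTCO1P12 took 19.1% ± 1.14 (SD, n = 5) of the counts of MT-CO1 and MTCO1P12 together in shCtrl, 7.66% ± 4.05 in sh#1 and 5.06% ± 1.18 in sh#2. MT-CO1 was above the shCtrl range in all 10 CDH11 KD tumors and the copy below it in 9, the exception being the first sh#1 tumor with MTCO1P12 at 874 and MT-CO1 at 4995. The part of read assignment in the MT-CO1 difference was not tested beyond the summed fit above. Reads of the copy and of the gene cannot be told apart in those windows.

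**Figure D4:**
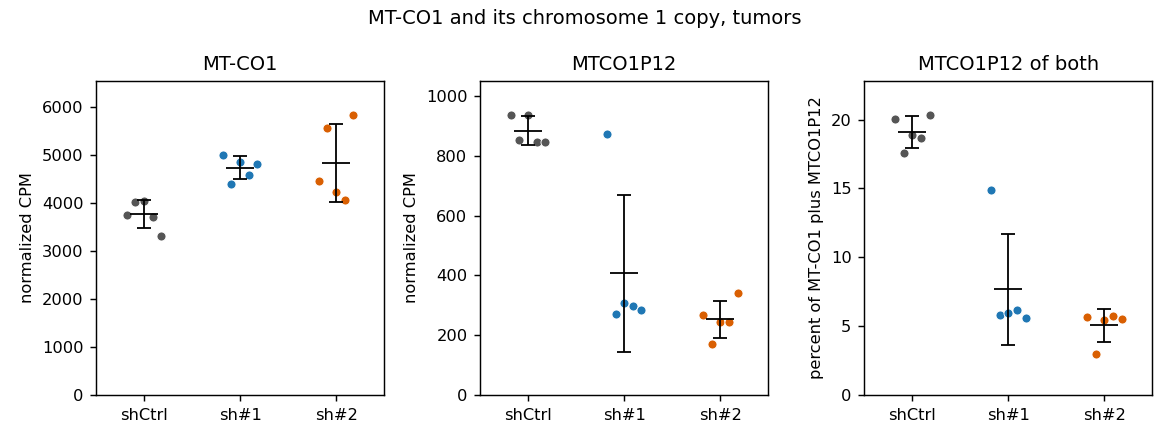
Normalized CPM of MT-CO1 and of its chromosome 1 copy MTCO1P12, and the percent of their summed counts on the copy (y axes, from 0), 1 point per tumor with the mean and SD of 5 tumors. MT-CO1 is at 3315 to 4027 in shCtrl and 4048 to 5830.2 in CDH11 KD tumors, while the copy takes 17.5 to 20.4% of the sum in shCtrl and 2.95 to 14.9% in CDH11 KD tumors.

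The copy of MT-CYB on chromosome 5, MTCYBP35 (ENSG00000251340, 94569540 to 94570676, plus strand), had 116, 70, 57, 125 and 39 counts in shCtrl tumors, 0, 0, 0, 0 and 1 in sh#1 and 1, 0, 1, 0 and 0 in sh#2. It was counted in all 5 shCtrl tumors and hardly at all in the others (adjusted p = 3.26e-18), and library mix and line cannot be told apart here. MTCYBP35 is more distant from its parent, with 86.0% identity and 159 of 1137 bases differing, and it shares 0 windows of read length with MT-CYB. A stretch of both with 10 differing bases in capitals follows.
MT-CYB, chrM:14763-14837: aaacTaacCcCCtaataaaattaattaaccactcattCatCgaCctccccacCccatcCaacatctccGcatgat
MTCYBP35, chr5:94569556-94569630: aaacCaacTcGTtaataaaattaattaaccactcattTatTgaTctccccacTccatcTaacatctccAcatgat

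The remaining copies with enough counts did not pass. MTATP6P1 (98.5% identity to MT-ATP6) had a log2 fold change of 0.17 (adjusted p = 0.576), MTCO2P2 of 0.19 (0.424) and MTCO2P12 of -0.35 (0.378). MTCO3P12 had 2 to 12 counts a tumor and was removed by the filter. Windows of read length found without a mismatch in the nuclear genome made up 28.0% of MT-ATP6, 14.9% of MT-CO3, 10.5% of MT-CO2 and 0 of MT-ATP8 and MT-CYB.

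MT-ATP8, the gene with the largest fall in cultured cells, had 164, 185, 176, 177 and 204 normalized CPM in shCtrl tumors, 602, 185, 321, 274 and 256 in sh#1 and 219, 404, 194, 256 and 370.5 in sh#2. The groups overlapped, with the first sh#1 tumor the highest. The log2 fold change was 0.74 (SE 0.25, 95% interval 0.22 to 1.27) and did not pass in edgeR (adjusted p = 0.216). It passed in DESeq2 (0.76, adjusted p = 0.0376), without the low-count filter (0.71, adjusted p = 0.00466) and without the first sh#1 tumor (0.60, adjusted p = 0.0764).

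The other 4 genes overlapped between the groups in tumors. MT-CYB ranged from 8743 to 11293 normalized CPM in shCtrl and from 9618 to 13843 in CDH11 KD tumors (log2 fold change 0.21, adjusted p = 0.341). MT-CO2 ranged from 7511 to 8581 and from 6509.6 to 10383 (0.07, 95% interval -0.12 to 0.25, adjusted p = 0.816). MT-CO3 ranged from 10724 to 12102 and from 8111 to 15634 (0.14, -0.07 to 0.35, adjusted p = 0.609), and MT-ATP6 from 6586 to 10726 and from 5935 to 11556 (0.05, -0.21 to 0.30, adjusted p = 0.918). The spread over CDH11 KD tumors was wider than over shCtrl tumors for MT-CO3, at an SD of 2143 (n = 10) against 513 (n = 5). The larger SD pools both hairpin lines and includes the first sh#1 tumor at 8111 and the fifth sh#2 tumor at 15634. For MT-ATP6 the SD of CPM per kb was 2448 (n = 10) against 2216 (n = 5).

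**Figure D5:**
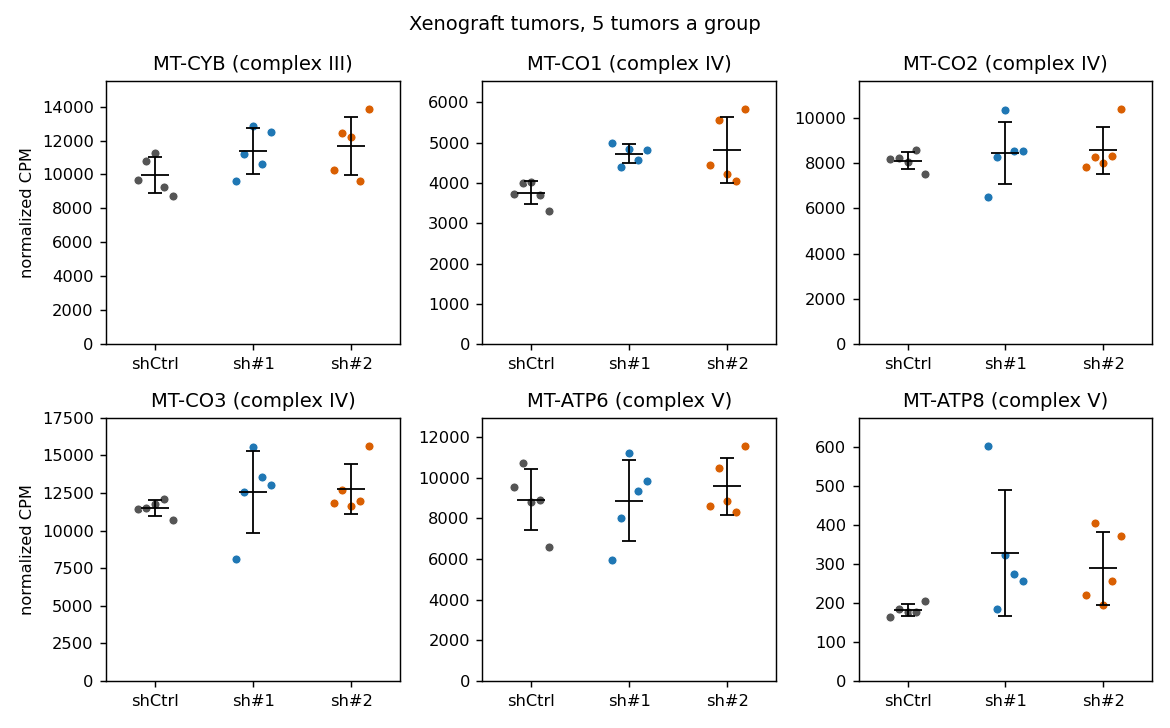
Normalized CPM (y axis, from 0) of each of the 6 genes in the shCtrl, sh#1 and sh#2 tumors, 1 point per tumor, with the mean and SD of the 5 tumors as bars. The MT-CO1 points of both hairpins lie above all shCtrl points, and the points of the other 5 genes overlap between groups. The share of all genes with no overlap was not counted.

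For sh#1 tumors 0 of the 6 genes passed, where 1.48% of all genes did in either direction. By edgeR 2 had an unadjusted p under 0.05, as did 1029 of all 9184 genes tested. DESeq2 called 0 of the 6 and 127 over all genes. For sh#2 tumors 1 of 6 was higher, MT-CO1, where 1.36% of all genes were. The hairpins did not differ from each other in any of the 6 genes in tumors (0 of 6 in edgeR, at an unadjusted p under 0.05 and in DESeq2, with 1.19% of all genes past the threshold). The interval of that difference was -0.23 to 0.17 for MT-CO1, -0.26 to 0.22 for MT-CO3 and -0.47 to 0.77 for MT-ATP8.

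Whether the CDH11 KD effect itself differed between tumors and cultured cells was tested in 1 fit over all 24 libraries. It was higher in tumors for 3 of the 6 genes, where 3.45% of the 9594 genes tested were, and for 2 of the complex I genes, MT-ND2 (1.21) and MT-ND3 (0.95). The difference in log2 fold change was 1.10 for MT-CO3 (SE 0.18, adjusted p = 0.000112), 0.86 for MT-ATP6 (SE 0.19, adjusted p = 0.0038) and 2.16 for MT-ATP8 (SE 0.36, adjusted p = 0.000765). For MT-CYB (0.23, adjusted p = 0.411), MT-CO1 (-0.31, adjusted p = 0.288) and MT-CO2 (0.17, adjusted p = 0.522) it did not pass. Sequencer, trimming and mapping differed between the 2 sets of libraries, and whether the counting differed is not known. The part of these steps in the difference was not tested.

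The nuclear partners of these 6 genes were described with lists of subunits and factors. In cultured cells 4 of 9 nuclear complex III subunits, 4 of 12 of complex IV and 2 of 18 of complex V rose and 0 fell, with medians of 0.18, 0.24 and 0.17. Over all genes tested 9.12% rose and 8.32% fell, and the complex V count is near that share. The examples that passed were UQCRB (0.36, adjusted p = 0.0218), UQCRC1 and UQCRC2 (0.34 and 0.31) of complex III, COX4I1 (0.39, adjusted p = 0.00557) and COX7C (0.37) of complex IV, and ATP5PO (0.44, adjusted p = 0.00406) and ATP5ME (0.30) of complex V. Of the mitochondrial genes of these complexes, MT-CO1 rose, MT-CO3, MT-ATP6 and MT-ATP8 fell, and MT-CYB and MT-CO2 did not pass.

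In tumors 1 of 9, 2 of 12 and 2 of 18 of these subunits were lower and 0 higher, at medians of -0.16, -0.16 and -0.14, where 0.817% of all genes tested were lower and 0.697% higher. CYC1, the cytochrome c1 of complex III, was at -0.47 (adjusted p = 0.0459), COX8A and COX6C of complex IV at -0.41 and -0.36, and ATP5MF and ATP5MPL of complex V at -0.49 and -0.45.

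Of 33 assembly factors, 1 rose and 2 fell in cultured cells, no larger a share than over all genes (9.12% and 8.32%). COX20, which escorts newly made MT-CO2 protein, rose by 0.82 (adjusted p = 0.0152), while COA7 (-0.83) and UQCC3 (-0.48), an assembly factor of complex III, fell. In tumors 0 of the 27 tested rose and 2 fell, where 0.697% of all genes tested rose and 0.817% fell. COA4 was 1 of them, at -0.42.

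Of 13 genes for the upkeep and transcription of mitochondrial DNA, 0 rose and 2 fell in cultured cells, with a median of -0.34. TWNK, the helicase that unwinds mitochondrial DNA for copying, was at -0.91 (adjusted p = 0.0084). Of 19 genes that process or stabilise mitochondrial RNA, 1 rose and 2 fell. With 9.12% of all genes higher and 8.32% lower, the few calls in these lists are single genes and not a result about the list. LRPPRC, which stabilises mitochondrial messengers, rose by 0.35 (adjusted p = 0.0311), and TRMT10C, a subunit of the RNase P that cuts at transfer RNAs, fell by 0.54 (adjusted p = 0.0255). In tumors the 12 upkeep and transcription genes tested had a median of -0.04, and 0 passed. There 1 of 19 processing genes, FASTK (-0.60, adjusted p = 0.0878), fell, where 0.817% of all genes tested fell.

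Among genes averaging 50 counts or more, those with the closest pattern to each gene were named by Pearson's r of log2 CPM, as a description over libraries that share lines and depth. In the 9 cultured libraries MT-CO1 was closest to PGK1, a glycolytic kinase (r = 0.998), and BNIP3, a mitophagy receptor (0.997). MT-CO3 was closest to AMD1 (0.997) and PLEC (0.994), MT-ATP6 to USP22 (0.995) and PLEC (0.994), and MT-ATP8 to URI1 (0.986). MT-CYB was closest to MYH9 (0.983) and MT-CO2 to E2F4 (0.959). In the 15 tumors MT-CO2 was closest to MTCO2P2 (0.879), MT-CO3 to MTND1P23 (0.904) and MT-ATP6 to MTATP6P1 (0.900), all of them nuclear copies of mitochondrial genes. MT-CO1 and MT-CYB were both closest to CBFB (0.822 and 0.853), and MT-ATP8 to YBX3 (0.839) and the mitochondrial ribosomal RNA gene MT-RNR2 (0.816).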

How the data were processed

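The authors deposited raw read counts per gene, without normalization. Cultured cells were read as single reads of 75 nt, trimmed in CLC Genomics Workbench and mapped to hg38 with RaNAseq per the study's methods, and which program made those counts is not settled. Tumor reads of the same length were trimmed with trim galore and mapped to hg38 with HISAT2. The counting tool, annotation, strand setting, molecular identifiers and the separation of human from mouse reads are not given in the sources used here. Reads in stretches shared with nuclear copies or overlapping genes can be assigned differently by different tools. Rows without values were left out.

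Tests on the deposited counts used edgeR 4.0.16 under R 4.3.3 (TMM, filterByExpr, robust quasi-likelihood test, Benjamini-Hochberg adjustment over all genes tested), with 2 groups for CDH11 KD and 3 groups for each hairpin, at thresholds of 0.05 in cultured cells, 0.1 in human and mouse genes of tumors, and 0.05 for the difference between them. Sequences and windows of 75 nt came from hg38 with GENCODE 44, read with Biopython 1.88. Named genes were the 6 members, copies with a mean of at least 5 counts, listed partners past the threshold with at least 20 mean counts (up to 3 rises and 3 falls a list), and the 2 closest genes by r. The alternatives were DESeq2 1.42.0, other scalings and filters, each replicate left out, a replicate block, nuclear copies added to their genes and a mouse-ratio covariate. Adding MT-ATP8 counts to MT-ATP6 was chosen after seeing the data. The members and lists were chosen with earlier results of these data known. Scripts were tested on simulated counts. Intervals cover 95%.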

Additional observations from a re-analysis of the deposited data

Results flagged for a closer look

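For 3 genes the effect of CDH11 KD differed between tumors and cultured cells in the fit over both. The difference was 1.10 for MT-CO3, 0.86 for MT-ATP6 and 2.16 for MT-ATP8 on the log2 scale, higher in tumors in each case. The Benjamini-Hochberg adjusted p of edgeR was 0.000112, 0.0038 and 0.000765. Cell state, sequencer and read processing differ together between the 2 sets and cannot be told apart.

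Single tumors stood far from the other 4 of their group in 6 of 30 groups checked. Chance flags about 1 group in 20, but the groups share tumors (2 of the 6 are the fifth sh#2 tumor and 3 the first sh#1 tumor), so the count cannot be set against that rate. In sh#2 tumors, the fifth had 10383 normalized CPM of MT-CO2 against 7851 to 8332 in the others, and 15634 of MT-CO3 against 11655 to 12712. MTCO1P12 took 14.9% of its sum with MT-CO1 in the first sh#1 tumor against 5.55 to 6.14% in the others, and 2.95% in the second sh#2 tumor against 5.45 to 5.72%.

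The first sh#1 tumor also stood apart in the mouse table. Mouse mt-Cytb was at 7728 normalized CPM there where the remaining sh#1 tumors had 1192 to 2598, and mouse mt-Co1 at 1086 where they had 175 to 333. The same tumor had the largest mouse share and the highest mouse adipocyte and skeletal muscle marker sums, and their part in these values was not tested.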

How the results depend on the processing

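In cultured cells 3 to 4 of the 6 genes passed for CDH11 KD under every alternative run, 5 to 6 for sh#1, 4 to 5 for sh#2 and 4 to 5 between the hairpins. The difference between tumors and cultured cells held for 3 genes throughout, or for 2 of 5 with MT-ATP8 added to MT-ATP6. In tumors the count for CDH11 KD was 1, and it was 2 with DESeq2 and 0 with nuclear copies added, with the replicate block and with the mouse-ratio covariate. It was 0 to 2 with 1 tumor left out (0 without shCtrl tumor 1, 2 or 4, sh#1 tumor 3 or sh#2 tumor 2 or 5, and 2 without sh#1 tumor 1). For sh#2 tumors it was 1, and 0 without the low-count filter, with copies added and with the covariate, and 0 to 2 with 1 tumor left out. For sh#1 tumors it was 0 to 1 with 1 tumor left out, and 1 without shCtrl tumor 3 or sh#2 tumor 5. The share of counts on the 6 genes in cultured cells had a log2 ratio of -0.65, or -0.70 without mitochondrial genes in the total and -0.68 to -0.62 with 1 library left out. The cause of these shifts was not tested.

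Values that changed sign were all close to 0 and did not pass. For CDH11 KD with 1 library left out, MT-CYB in cultured cells ranged from -0.083 to 0.013 and MT-ATP6 in tumors from -0.052 to 0.12. For sh#1 tumors MT-CO2 ranged from -0.026 to 0.14 and MT-ATP6 from -0.11 to 0.11, with 0.015 when MT-ATP8 was added and 0.075 with the covariate. For sh#2 tumors MT-CO2 ranged from -0.0043 to 0.11 and MT-ATP6 from -0.0010 to 0.18. Between the hairpins in tumors, MT-CYB ranged from -0.096 to 0.035, MT-CO1 from -0.081 to 0.054 (0.024 with copies added), MT-CO2 from -0.10 to 0.067, MT-CO3 from -0.11 to 0.11 (0.0012 with upper quartile scaling, 0.0026 without the filter), MT-ATP6 from -0.21 to 0.013 and MT-ATP8 from -0.13 to 0.30.

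Deviations from the group mean correlated at r over 0.1 in 0 of 9 cultured and 2 of 15 tumor pairs of same-numbered libraries. Among differently numbered pairs this held for 0 of 18 and 2 of 60. Correlations this low and pairs this few cannot settle whether the numbers pair the libraries. With the replicate block, MT-CO1 kept its size but did not pass in cultured cells (0.64, adjusted p = 0.0558) or tumors (0.34, adjusted p = 0.125), MT-ATP8 passed between the hairpins in cultured cells (0.65, adjusted p = 0.00992), and other calls of the 6 genes did not change. DESeq2 also called that MT-ATP8 difference (adjusted p = 0.0155). The covariate gave 0.33 for MT-CO1 in tumors (adjusted p = 0.176). Copies could not be added in cultured cells, where 0 are listed.

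Counts over all genes moved by more than 1.5 times in places. For CDH11 KD in cultured cells 1719 became 3291 with 3 groups and 882 to 974 without 1 shCtrl library, and with DESeq2 sh#1 went from 2209 to 1346 and the hairpin difference from 2431 to 1543. In tumors 139 genes for CDH11 KD became 227 with 3 groups, 276 without the filter, 63 with the covariate and 48 to 399 without 1 shCtrl tumor. The depth of the smallest tumor library, 414849 counts, limits genes with few counts more than these abundant ones.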

Other observations

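Mouse counterparts of the 6 genes were looked up in the mouse table of the tumors. How human and mouse reads were separated is not known, so these counts need not all come from host cells. Mouse mt-Cytb had 271, 265, 105, 149 and 71 counts in shCtrl tumors, 1010, 159, 304, 110 and 200 in sh#1 and 94, 373, 486, 140 and 218 in sh#2. Mouse mt-Co1 had 30, 34, 24, 18 and 10 counts in shCtrl, 142, 23, 39, 18 and 20 in sh#1 and 20, 69, 68, 27 and 28 in sh#2. In normalized CPM, mt-Cytb overlapped between shCtrl and each hairpin, and mt-Co1 overlapped for sh#1 while all sh#2 tumors (249 to 429) were above all shCtrl tumors (139 to 245). The log2 fold changes of 0.87 and 0.94 for CDH11 KD did not pass in edgeR (adjusted p = 0.848 for both, 2 of 2 at an unadjusted p under 0.05, 0 of 2 in DESeq2). Without the first sh#1 tumor they were 0.48 and 0.59. Of all 1669 mouse genes tested, 0 passed in edgeR, 92 had an unadjusted p under 0.05 and DESeq2 called 1. Mouse mt-Co2, mt-Co3 and mt-Atp6 had 0 to 4 counts a tumor and were not tested, and mt-Atp8 is not listed.

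The mouse cell markers summed to wide ranges. Fibroblast markers ranged from 7051 to 20025 CPM in shCtrl, 2295 to 12400 in sh#1 and 7570 to 23212 in sh#2 tumors, and macrophage markers from 1956 to 4892, 1607 to 3083 and 2254 to 5156. Endothelial markers ranged from 201 to 363, 193 to 358 and 301 to 493 CPM. Skeletal muscle markers ranged from 60.1 to 1514, 34.2 to 6205 and 24.9 to 1196 CPM, adipocyte markers from 40.0 to 398, 119 to 10337 and 80.7 to 1097, and keratinocyte markers from 0 to 108, 0 to 10.8 and 0 to 12.3. The mitochondrial ribosomal RNA genes, listed in the human tumor table, had a median log2 fold change of 0.59, and neither passed (edgeR).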
